A study of Mus musculus with 16 samples.

Results

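The oligodendrocyte lineage was followed through 9 genes of 53779 in a table of mouse primary neuronal cultures (PNCs), chosen by gene symbol. They were the transcription factors *Olig1*, *Olig2* and *Sox10*, the precursor surface proteins *Pdgfra* and *Cspg4*, and the myelin genes *Cnp*, *Mbp*, *Mag* and *Mog*. The 9 genes were represented by 49 of 135202 isoforms. PNCs from the cortex of wild-type embryos at E15 received vehicle or 10 μM tianeptine (TIA), an antidepressant, at DIV 8, and 24 h later were exposed to 3-h oxygen-glucose deprivation (OGD), an in vitro model of ischemia, or to sham handling. RNA was collected after 6-h reoxygenation from 16 cultures, 4 in each of the groups CONTROL-VEH (sham with vehicle, cultures 1 to 4), CONTROL-TIA (sham with TIA, 5 to 8), OGD-VEH (OGD with vehicle, 9 to 12) and OGD-TIA (OGD with TIA, 13 to 16). The sample labels call both vehicle groups untreated. The labels do not say which embryos or preparations gave which cultures, so p-values measure only the spread between these cultures.

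Oligodendrocytes wrap the axons of the central nervous system in myelin. They arise from precursor cells that are specified by OLIG2, divide in response to platelet-derived growth factor through the receptor PDGFRA, and carry the proteoglycan NG2, the product of *Cspg4*. SOX10 marks the lineage from precursor to mature cell, *Cnp* and *Mbp* are switched on as precursors differentiate, and *Mag* and *Mog* encode adhesion and surface proteins of mature myelin.

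The values are FPKM (fragments per kilobase of transcript, corrected for library depth) with TMM scaling and with the isoforms of a gene summed. TMM scaling is meant to reduce differences in composition between libraries and need not remove them. Depth was estimated at 19.7 to 25.6 M reads per culture with a median of 23.0 M, and 1 read on a transcript of 1 kilobase was worth 0.039 to 0.0508 FPKM. The estimate was made from the scaled values, and its upper end lies above the paper's range of aligned reads. Estimated read numbers are therefore approximate. The neuronal label was compared with marker genes. The 10 neuronal genes listed summed to 1271 to 3443 FPKM per culture and were all present, with *Tubb3*, *Stmn2* and *Map2* the most abundant. The 10 astrocyte genes summed to 705 to 2734 FPKM, with *Aldoc*, *Slc1a3* and *Aldh1l1* the most abundant. The 10 microglial genes summed to 0.56 to 3.15 FPKM per culture, with *Cx3cr1* and *Ptprc* under 0.05 FPKM in every culture, and the 8 endothelial genes summed to 0.74 to 5.14 FPKM, with *Cldn5* and *Cdh5* under 0.05 FPKM. RNA was taken from whole cultures, and fewer cells of a type and less RNA per cell cannot be told apart in them.

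Promoter sequences of 6 of the 9 genes were found in RefSeq (GRCm38.p6). The upstream stretches are shown for *Olig2*, *Pdgfra*, *Cspg4* and *Cnp*, genes with higher mean values after OGD. Each is written 5′ to 3′ on the gene's strand and ends before both the RefSeq and the GENCODE start. Capitals mark the E-box CANNTG, the kind of motif that OLIG proteins bind.
Olig2 chr16:91225300-91225456 (+): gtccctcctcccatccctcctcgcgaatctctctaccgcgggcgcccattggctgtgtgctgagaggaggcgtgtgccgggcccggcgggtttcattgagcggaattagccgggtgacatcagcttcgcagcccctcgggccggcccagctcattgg
Pdgfra chr5:75152001-75152250 (+): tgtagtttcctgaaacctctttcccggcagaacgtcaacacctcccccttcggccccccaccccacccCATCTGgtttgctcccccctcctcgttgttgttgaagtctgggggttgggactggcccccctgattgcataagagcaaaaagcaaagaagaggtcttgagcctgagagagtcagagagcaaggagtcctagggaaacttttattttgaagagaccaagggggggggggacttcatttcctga
Cspg4 chr9:56864854-56865032 (+): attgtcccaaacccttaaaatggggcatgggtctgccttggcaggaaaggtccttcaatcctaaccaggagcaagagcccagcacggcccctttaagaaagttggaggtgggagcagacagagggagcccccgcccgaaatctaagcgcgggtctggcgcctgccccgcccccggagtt
Cnp chr11:100574689-100574903 (+): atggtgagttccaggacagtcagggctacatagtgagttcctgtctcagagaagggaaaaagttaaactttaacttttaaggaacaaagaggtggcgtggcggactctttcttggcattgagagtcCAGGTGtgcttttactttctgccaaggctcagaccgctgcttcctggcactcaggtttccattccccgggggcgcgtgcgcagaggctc

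Motifs were searched on both strands in the whole RefSeq window, 250 bases before to 50 bases after the start. The E-box was found in 2 places for *Pdgfra*, at 182 bases before and 17 bases after the start, and in 1 place for *Cnp*, while the windows of *Olig2* and *Cspg4* held no match. Among all 32851 promoter windows, 72.3% held a match. A SOX motif, ACAANG, was found once each for *Olig2*, *Pdgfra* and *Cnp* and not for *Cspg4*, against 41.2% of all windows. Neither the AP-1 motif TGANTCA (7.81% of all windows) nor the hypoxia response motif ACGTG (19.6%), which overlaps E-boxes that read CACGTG, was found in the 4 windows. A match describes letters and not a bound site.

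In CONTROL-VEH, the levels per transcript length ran from *Olig1* (76.0 ± 12.03 FPKM, SD, n = 4) through *Olig2* (50.0 ± 4.42), *Pdgfra* (41.5 ± 5.82), *Cnp* (10.98 ± 3.08), *Sox10* (7.90 ± 2.81), *Mbp* (7.18 ± 2.02) and *Cspg4* (3.14 ± 0.473) to *Mag* (0.233 ± 0.224) and *Mog* (0.00625 ± 0.0125). *Olig1*, *Olig2* and *Pdgfra* were the highest without OGD, and *Mag* and *Mog*, of mature myelin, the lowest. The levels did not follow the stages throughout, since the precursor gene *Cspg4* had a lower mean than the myelin genes *Cnp* and *Mbp*. In that order, the cultures of *Olig2* and *Pdgfra*, of *Cnp* and *Sox10*, and of *Sox10* and *Mbp* overlapped, and the cultures of the other neighbours did not. The plot of all 9 genes by group shows each culture.

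**Figure D1:**
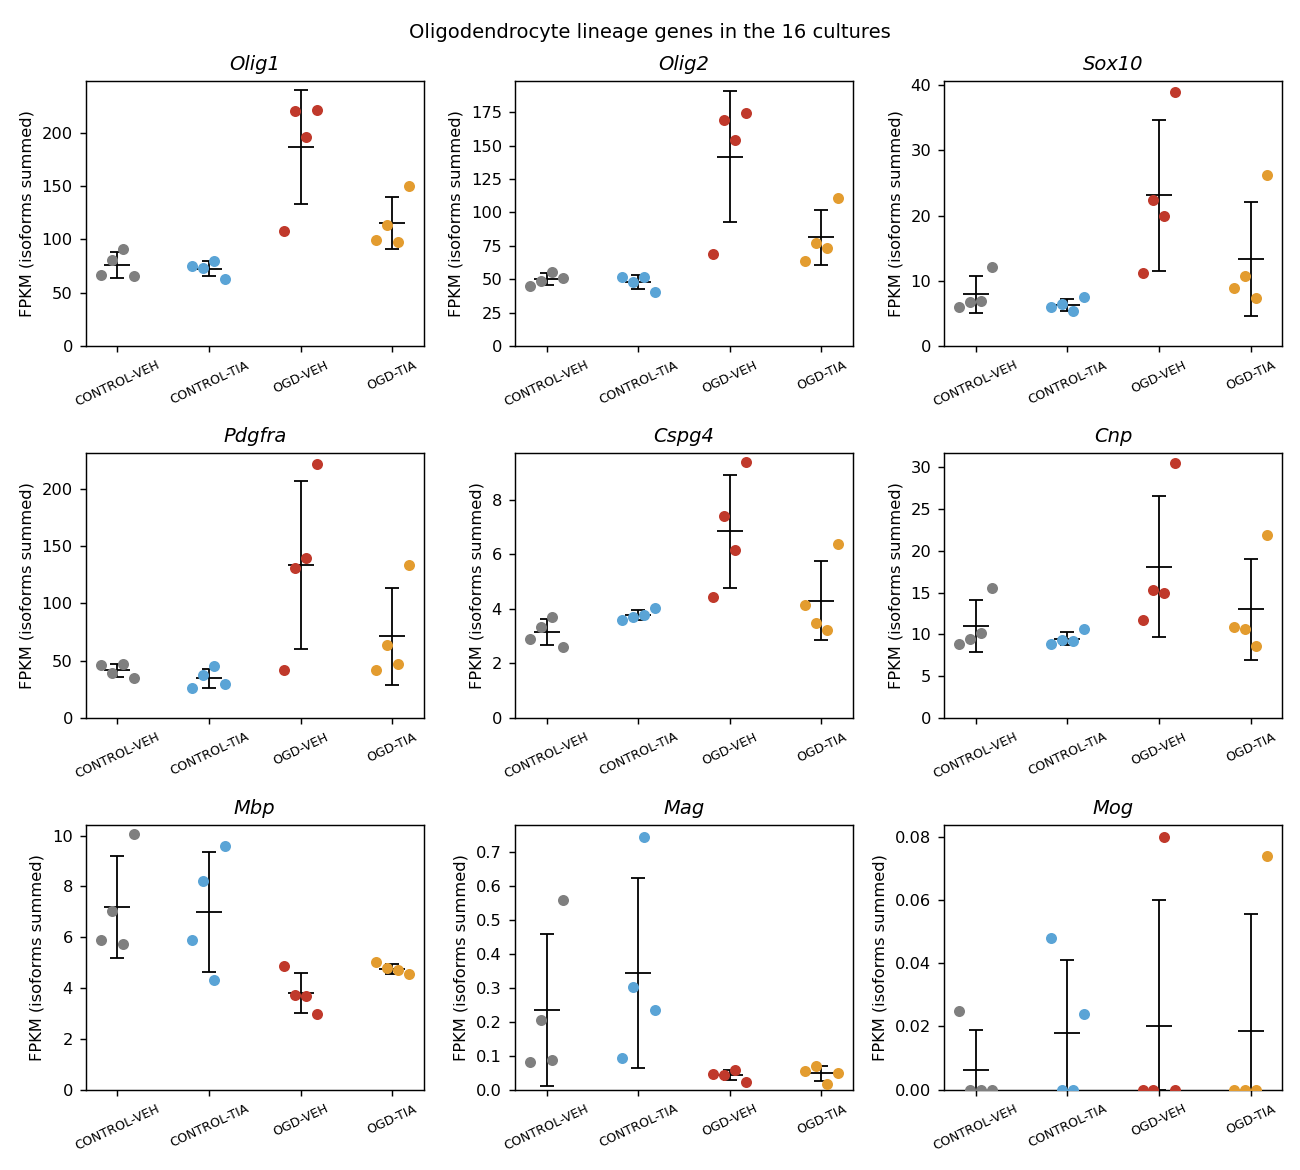
Summed isoform FPKM (vertical axes, linear, starting at 0) of the 9 lineage genes in the 4 groups. Points are single cultures in the order of their numbers, the long bars are group means and the whiskers 1 SD (n = 4, cut at 0). The OGD-VEH cultures of *Olig1* (108 to 221 FPKM) and *Olig2* (69.0 to 174 FPKM) lie above both control groups, and those of *Mbp* (2.97 to 4.87 FPKM) lie below CONTROL-VEH.

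After OGD with vehicle, the 3 transcription factors and *Cspg4* were upregulated relative to CONTROL-VEH, by 2.18-fold to 2.92-fold in mean FPKM. A gene was called when its adjusted p (padj, Benjamini-Hochberg over all genes tested) was 0.05 or lower and its log2 fold change was 1 or more in size, by limma on log2(FPKM + 0.1), which understates the change of low genes. Of the 9 genes, 7 reached 0.5 FPKM in the mean and were tested, 4 were called upregulated and 0 downregulated, against 4.08% of all 16376 genes called, 2.40% upregulated and 1.68% downregulated. By padj alone, 5 of the 7 passed, against 8.44% of all genes. The cultures of 3 of the 7 lay wholly above CONTROL-VEH (12.8% of all genes did) and those of 1 wholly below (9.94%). The median log2 fold change of the 7 was 1.251, against 0.10 over all genes. Leaving out any 1 of the 4 CONTROL-VEH cultures, or culture 10, 11 or 12, left 1 to 71 calls among all genes and ended the 4 calls, with padj up to 0.125, and all 4 were kept without culture 9. Over these 8 fits, the log2 fold change ran from 1.15 to 1.49 for *Olig1*, from 1.28 to 1.73 for *Olig2*, from 1.16 to 1.76 for *Sox10* and from 0.90 to 1.249 for *Cspg4*. The 4 calls also ended without the filter on low values (limma padj 0.0678 to 0.0962), and those of *Sox10* (padj = 0.0513) and *Cspg4* (log2 fold change 0.98) with median-ratio scaling.

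*Olig1*, on chromosome 16 from 91269772 to 91271933, encodes a basic helix-loop-helix factor of the lineage. Its 4 CONTROL-VEH cultures had 66.7, 81.0, 90.6 and 65.5 FPKM, and its 4 OGD-VEH cultures, from 9 to 12, had 108, 220, 196 and 221 FPKM. All OGD-VEH cultures were higher, with culture 9 nearest to the controls (log2 fold change 1.251, SE 0.24, limma padj = 0.034). *Olig2*, on chromosome 16 from 91225457 to 91228677, encodes the factor that specifies oligodendrocyte precursors. It had 44.9, 48.8, 55.4 and 51.1 FPKM in CONTROL-VEH and 69.0, 169, 154 and 174 FPKM in OGD-VEH. Again no culture overlapped and culture 9 was the lowest of OGD-VEH (log2 fold change 1.41, SE 0.28, limma padj = 0.0347). In both genes the exact permutation test over the 70 assignments of 8 cultures gave p = 0.0286 (two-sided), the smallest it can give. *Sox10*, on chromosome 15 from 79154908 to 79165240, encodes a factor that activates myelin genes. It had 5.91, 6.67, 6.95 and 12.1 FPKM in CONTROL-VEH and 11.3, 22.3, 19.9 and 38.9 FPKM in OGD-VEH. Culture 4 of CONTROL-VEH lay above culture 9 of OGD-VEH, so the groups overlapped (log2 fold change 1.46, SE 0.37, limma padj = 0.0488), and the exact permutation p was 0.0571.

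*Pdgfra* and *Cspg4* mark the surface of precursors, and both are also made by other cells, such as fibroblasts and pericytes. *Pdgfra*, on chromosome 5 from 75152292 to 75198215, had 46.0, 38.7, 46.6 and 34.6 FPKM in CONTROL-VEH and 41.6, 131, 140 and 222 FPKM in OGD-VEH. Cultures 10 to 12 were far above the controls and culture 9 was among them, and the difference did not pass (log2 fold change 1.47, SE 0.45, limma padj = 0.0641, exact permutation p = 0.0857). Without culture 9 it was called, with a log2 fold change of 1.95 and limma padj = 0.00241. *Cspg4*, on chromosome 9 from 56865033 to 56899870, had 2.90, 3.35, 3.68 and 2.61 FPKM in CONTROL-VEH and 4.45, 7.39, 6.15 and 9.38 FPKM in OGD-VEH. Its groups were separate (log2 fold change 1.06, SE 0.24, limma padj = 0.042). With a pseudocount of 1 its log2 fold change was 0.89, under the fold threshold.

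The myelin genes did not move as 1 group. *Cnp*, on chromosome 11 from 100574904 to 100591729, encodes a phosphodiesterase of early oligodendrocytes and myelin. It had 8.78, 9.40, 10.2 and 15.5 FPKM in CONTROL-VEH and 11.7, 15.3, 14.9 and 30.6 FPKM in OGD-VEH. The groups overlapped and the difference did not pass (log2 fold change 0.65, SE 0.31, limma padj = 0.165). *Mbp*, on chromosome 18 from 82475146 to 82585637, encodes a main structural protein of compact myelin. It had 5.88, 7.02, 5.73 and 10.1 FPKM in CONTROL-VEH and 4.87, 3.72, 3.66 and 2.97 FPKM in OGD-VEH. All 4 OGD-VEH cultures were lower than all controls (exact permutation p = 0.0286), with a log2 fold change of -0.88 (SE 0.23, limma padj = 0.0492) that was under the fold threshold. *Mag*, on chromosome 7 from 30899176 to 30914873, was below the filter on low values. It was listed at 0.082, 0.205, 0.088 and 0.558 FPKM in CONTROL-VEH and at 0.045, 0.042, 0.057 and 0.022 FPKM in OGD-VEH, which corresponds to an estimated 4 to 29 and 1 to 3 reads. Its groups were also separate, and the fit without the filter gave a log2 fold change of -1.03 (SE 0.41, limma padj = 0.191). *Mog*, on chromosome 17 from 37010743 to 37023398, was listed at 0 in 11 of the 16 cultures and had at most 0.08 FPKM, an estimated 0 to 2 reads, so no difference between groups could be detected at this depth.

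With TIA, 6 of the 7 tested genes had higher means after OGD than in CONTROL-TIA, most of all the same 3 transcription factors and *Pdgfra*. None of the 7 was called. In this comparison limma called 0 of 16273 genes (0%), while 3177 (19.5%) had an unadjusted p under 0.05, and 4 of the 7 lineage genes were among these. The paper, with DESeq2 and the same thresholds, did call genes here, so 0 calls by limma do not mean that no gene changed. The cultures of *Olig1* and *Olig2* were separate in the same direction as with vehicle (9.50% of all genes were). *Olig1* had 74.8, 73.2, 79.5 and 63.1 FPKM in CONTROL-TIA and 99.9, 114, 97.8 and 150 FPKM in OGD-TIA (log2 fold change 0.65, SE 0.15, limma padj = 0.117). *Olig2* had 51.4, 48.1, 51.6 and 40.6 FPKM in CONTROL-TIA and 63.6, 77.2, 73.2 and 111 FPKM in OGD-TIA (log2 fold change 0.73, SE 0.17, limma padj = 0.122). In both genes culture 16 was the highest. *Sox10* had 6.00, 6.49, 5.32 and 7.501 FPKM in CONTROL-TIA and 8.83, 10.7, 7.33 and 26.2 FPKM in OGD-TIA, with 1 overlap (log2 fold change 0.88, SE 0.36, limma padj = 0.240). *Pdgfra* had 26.3, 37.1, 44.9 and 29.3 FPKM in CONTROL-TIA and 41.4, 63.2, 46.5 and 133 FPKM in OGD-TIA (log2 fold change 0.91, SE 0.36, limma padj = 0.224). Both means rested in part on culture 16: without it the log2 fold changes were 0.49 for *Sox10* and 0.56 for *Pdgfra*.

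*Cspg4*, which was upregulated with vehicle, had close means in the TIA groups, with 3.59, 3.70, 3.77 and 4.04 FPKM in CONTROL-TIA and 4.13, 3.47, 3.22 and 6.38 FPKM in OGD-TIA. Its log2 fold change was 0.13 (SE 0.21, limma padj = 0.745). *Cnp* had 8.89 to 10.6 FPKM in CONTROL-TIA and 8.59 to 21.9 FPKM in OGD-TIA (log2 fold change 0.36, SE 0.26, limma padj = 0.470). *Mbp* had 5.90, 8.20, 4.31 and 9.58 FPKM in CONTROL-TIA and 5.00, 4.80, 4.70 and 4.53 FPKM in OGD-TIA. The OGD-TIA cultures of *Mbp* were alike, and culture 7 of CONTROL-TIA lay below them (log2 fold change -0.48, SE 0.23, limma padj = 0.289). *Mag* was listed at 0.092 to 0.744 FPKM in CONTROL-TIA and 0.017 to 0.069 FPKM in OGD-TIA (log2 fold change -1.39, SE 0.42, limma padj = 0.263 without the filter). Its groups were separate, as with vehicle. Of the genes above the filter, 6.70% were separate in this direction, and the share among genes as low as *Mag* was not counted.

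TIA itself was compared first in sham cultures and then after OGD. In CONTROL-TIA against CONTROL-VEH, the 7 log2 fold changes lay between -0.29 (*Pdgfra*, SE 0.18) and 0.27 (*Cspg4*, SE 0.13), all with limma padj = 0.999. There limma called 0 of 16196 genes, and 623 (3.85%) had an unadjusted p under 0.05, 0 of them lineage genes. In OGD-TIA against OGD-VEH, which shares the OGD-VEH cultures with the vehicle comparison, the 6 genes with higher means after OGD had lower means with TIA, from -0.47 for *Cnp* (SE 0.37) to -0.85 for *Sox10* (SE 0.47), and *Mbp* had a higher one (0.33, SE 0.17). The cultures of all 7 genes overlapped between these groups, and limma padj lay between 0.551 and 0.579. Limma called 0 of 16380 genes here, and the 1294 (7.90%) with an unadjusted p under 0.05 included *Olig1*, *Olig2* and *Cspg4*.

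Whether OGD changed these genes less with TIA than with vehicle was tested as an interaction over the 16 cultures. Limma called 0 of 16342 genes, and 990 (6.06%) had an unadjusted p under 0.05. The smallest p of the 7 genes was that of *Cspg4* (difference of log2 fold changes -0.93, SE 0.32, unadjusted p = 0.0116, limma padj = 0.723). For *Olig1* the difference was -0.60 (SE 0.30) and for *Olig2* -0.68 (SE 0.35), both with limma padj = 0.723. For *Mbp* it was 0.40 (SE 0.33, limma padj = 0.744). None of the 7 differences passed the test.

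**Figure D2:**
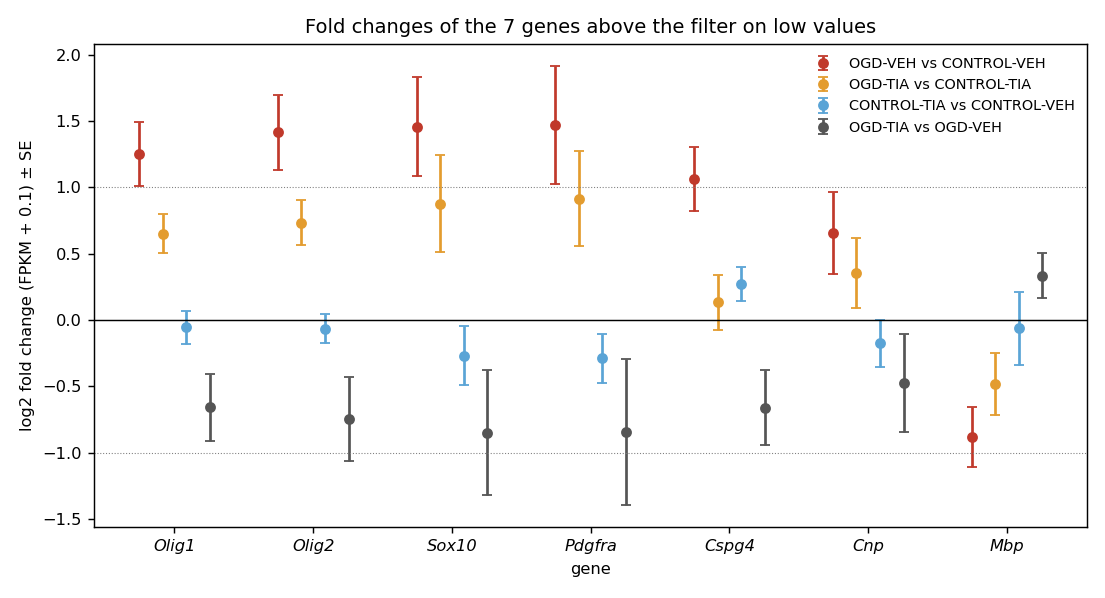
Log2 fold change of FPKM + 0.1 (vertical axis, points) with its standard error from limma (whiskers) for the 7 tested lineage genes in 4 comparisons (colors); dotted lines mark a log2 fold change of 1 and -1. With vehicle (red), 5 of the 7 genes lie above 1, and with TIA (orange) all 7 lie between -0.48 and 0.91; the comparisons share cultures.

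The cultures of an OGD group differed from each other in a way that the genes shared. In OGD-VEH, culture 9 was the lowest and culture 12 the highest for *Olig1*, *Olig2*, *Sox10*, *Pdgfra*, *Cspg4* and *Cnp*, while for *Mbp* culture 12 was the lowest and culture 9 the highest. In OGD-TIA, culture 16 was the highest for the same 6 genes and the lowest for *Mbp*. Some genes also shared an order in the sham groups. Culture 4 of CONTROL-VEH was the highest for *Sox10*, *Cnp* and *Mbp* and the lowest for *Olig1*, *Pdgfra* and *Cspg4*. Culture 8 of CONTROL-TIA was the highest for *Sox10*, *Cnp*, *Mbp* and *Cspg4* and the lowest for *Olig1* and *Olig2*. The cause of the spread within groups was not tested. As a description over the 16 cultures, which share the group differences, Pearson's r was 0.99 between *Olig1* and *Olig2*, 0.95 between *Sox10* and *Cnp*, and -0.84 between *Olig1* and *Mbp*. With the group means removed, r was 0.95, 0.97 and -0.57 for these pairs.

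In the OGD groups, the neuronal list moved with the same cultures, in the opposite direction. Its sum was 2853 to 3443 FPKM in CONTROL-VEH, 2886 to 3046 in CONTROL-TIA, 1271 to 2556 in OGD-VEH and 1702 to 2818 in OGD-TIA, and culture 12 had the lowest sum of OGD-VEH and culture 16 that of OGD-TIA. Of its 10 genes, 1 was downregulated in OGD-VEH (1.68% of all genes were), *Syt1*, a synaptic vesicle calcium sensor (log2 fold change -1.52, limma padj = 0.0447), and the median was -0.93, against 0.10 over all genes. Limma gave 6 lower and 0 higher neuronal genes at an unadjusted p under 0.05, against 14.8% lower and 20.2% higher of all genes. The astrocyte list summed to 813 to 1690 FPKM in CONTROL-VEH and 1089 to 2734 FPKM in OGD-VEH, with 0 of 10 genes called by limma (4 higher and 0 lower at an unadjusted p under 0.05) and a median of 0.73. The progenitor list had 3 of 11 genes called upregulated, *Nes* (log2 fold change 1.71), *Vim* (1.74) and *Hes1* (1.17), against 2.40% of all genes, and a median of 1.16. Limma gave 10 higher and 0 lower progenitor genes at an unadjusted p under 0.05. *Nes* and *Vim* encode intermediate filaments of neural progenitors and of reactive astrocytes, and *Hes1* a repressor in the Notch pathway. The values are relative to the RNA of the whole culture, and the part that a lower neuronal share or a higher astrocyte share has in the lineage genes was not tested. The pericyte list summed to 5.33 to 8.85 FPKM in CONTROL-VEH and 5.82 to 16.3 FPKM in OGD-VEH. In culture 10, which had the highest sum, *Tagln* alone gave 9.86 FPKM, against 0.593 to 1.45 FPKM in the other OGD-VEH cultures. Culture 12 summed to 14.97 FPKM. Of the 10 pericyte genes, 3 were tested and 0 were called (1 higher at an unadjusted p under 0.05). The fibroblast list summed to 39.7 to 44.4 FPKM in CONTROL-VEH and 16.98 to 37.1 FPKM in OGD-VEH. The part of both lists in *Pdgfra* and *Cspg4* was not tested.

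**Figure D3:**
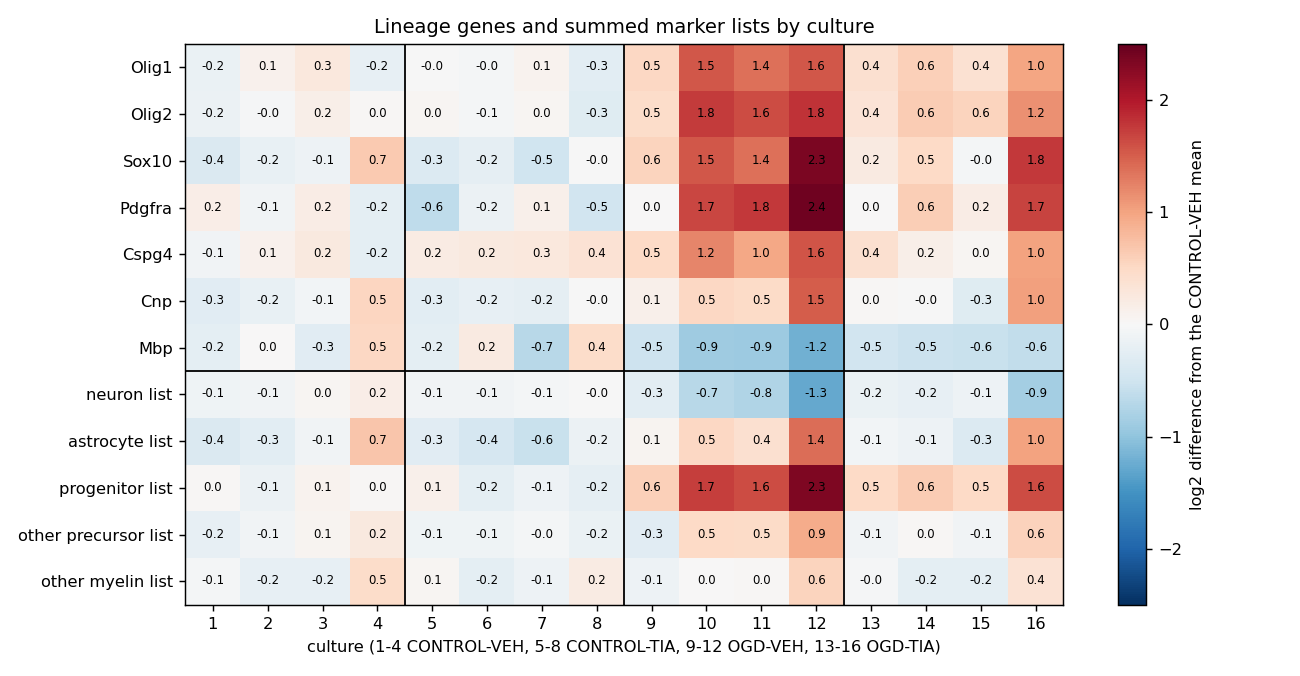
Log2 difference of each culture (columns, 16 cultures in 4 groups) from the CONTROL-VEH mean, for 7 lineage genes above the line and the summed FPKM of 5 marker lists below it; red is higher, blue lower, and each cell prints its value. Cultures 10 to 12 and 16 carry the highest values of *Olig2* (1.63 to 1.80 and 1.15) and the lowest of the neuron list (-0.69 to -1.28 and -0.86), and culture 9 stays nearer to the controls (0.47 and -0.27).

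The genes whose values ran most alike over the 16 cultures were named among 12516 genes that reached 1 FPKM in the mean, by Pearson's r as a description. For *Olig2* these were *Sall3* (0.99), *Gtse1* (0.99) and *Olig1* (0.99). For *Olig1* they were *Olig2*, *Peg12* and *Ptk7*, for *Pdgfra* *Pggt1b*, *Ss18* and *Galnt4*, for *Cspg4* *Rhoj*, *Marveld1* and *Slc12a4*, and for *Sox10* *Btg2*, *Ctnna1* and *Zfp516*. *Cnp* ran most like *Slc1a3* (0.99) and *Gja1* (0.99), a glutamate transporter and a gap junction protein of astrocytes, and *P4ha3* (0.98). *Mbp* ran most like *Lgi1* (0.95) and *Gria1* (0.93), which encode a synaptic secreted protein and an AMPA receptor subunit of neurons, and *Cd47* (0.92). *Cnp* and *Mbp*, both myelin genes, thus had different genes closest to them. The ratio of *Mbp* to *Cnp* was 0.562 to 0.746 in CONTROL-VEH and 0.0972 to 0.418 in OGD-VEH, without overlap, and 0.471 to 0.905 in CONTROL-TIA and 0.207 to 0.546 in OGD-TIA. This ratio restates the values of both genes and is not a further result. How many pairs of genes have ratios that separate was not counted.

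The isoforms of *Mbp* showed which transcripts carried its level. The *Mbp* locus has an upstream start, from which the golli transcripts known from neurons and immune cells begin, and a downstream start, from which the classic myelin isoforms begin. The 4 isoforms from the upstream start held 60.6% of *Mbp* in CONTROL-VEH, and most of this was Mbp-205, a protein-coding isoform of 4797 bases. Summed, they had 5.05, 4.30, 3.95 and 4.09 FPKM in CONTROL-VEH and 2.71, 2.05, 2.002 and 2.09 FPKM in OGD-VEH. All OGD-VEH cultures were lower, a log2 difference of -0.95. In OGD-TIA the 4 cultures had 4.52, 4.49, 2.98 and 3.64 FPKM, all above OGD-VEH, a log2 difference of 0.78. The whole *Mbp* overlapped between OGD-TIA and OGD-VEH (log2 fold change 0.33, SE 0.17, limma padj = 0.551). How many of all isoforms separate in this way was not counted. For Mbp-205 alone, tested among all isoforms, limma padj was 0.134 between OGD-VEH and CONTROL-VEH and 0.724 between OGD-TIA and OGD-VEH. The 11 isoforms from the downstream start had 0.825 to 5.98 FPKM in CONTROL-VEH and 0.711 to 2.16 FPKM in OGD-VEH, and overlapped in all 4 comparisons of groups. Their mean and SD in CONTROL-VEH, 2.80 ± 2.26 FPKM, were set by culture 4.

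*Pdgfra* was divided mainly between the full-length Pdgfra-201 (6549 bases) and Pdgfra-206, an isoform of 442 bases whose FPKM varied from 0 to 113. Reads shared by isoforms were assigned by probability, and a short isoform weighs heavily in a sum of FPKM. Pdgfra-201 alone had 19.995, 18.7, 25.1 and 29.3 FPKM in CONTROL-VEH and 29.9, 65.2, 62.2 and 93.9 FPKM in OGD-VEH. These groups were separate, although culture 9 exceeded culture 4 by less than 1 FPKM (log2 fold change 1.34, SE 0.34, limma padj = 0.140 among all isoforms). With TIA it had 22.0, 23.1, 19.8 and 24.2 FPKM in CONTROL-TIA and 28.5, 30.9, 28.9 and 64.6 FPKM in OGD-TIA, also separate (log2 fold change 0.69, SE 0.27, limma padj = 0.445). With each isoform weighted by its length, the summed *Pdgfra* was called upregulated in OGD-VEH (log2 fold change 1.31, SE 0.33, limma padj = 0.0318) and *Cspg4* was not (0.83, SE 0.24). In *Cspg4* the full-length coding isoform had 2.37 ± 0.218 FPKM in CONTROL-VEH against 3.75 ± 1.47 in OGD-VEH, with overlap. Cspg4-204, annotated as a retained intron, had 0, 0.495, 1.21 and 0.135 FPKM in CONTROL-VEH and 2.16, 2.75, 1.56 and 3.20 FPKM in OGD-VEH. The retained-intron isoform was thus separate between the groups and the coding isoform was not, and limma padj was 0.152 and 0.366. For Pdgfra-201 and Cspg4-204 too, the share of all isoforms that separate was not counted.

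**Figure D4:**
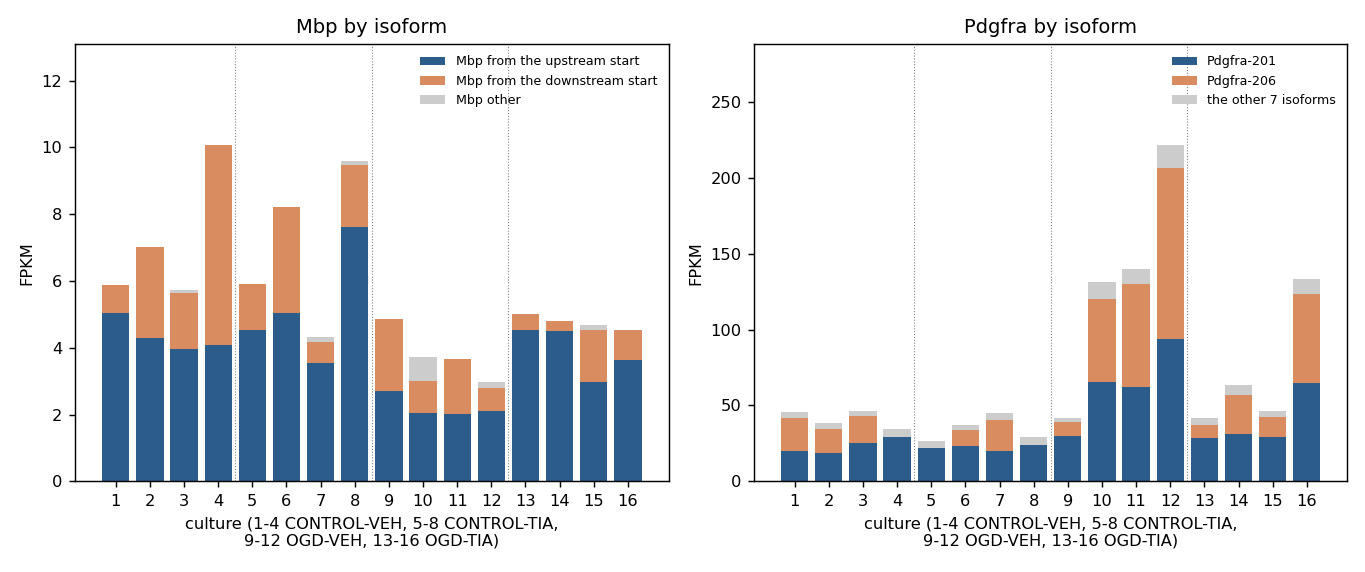
FPKM of *Mbp* (left) and *Pdgfra* (right) in each of the 16 cultures as stacked bars from 0, divided by transcript start or isoform (colors). The upstream-start part of *Mbp* is 2.002 to 2.71 FPKM in OGD-VEH and 2.98 FPKM or more in every other culture, and Pdgfra-206 is 0 in cultures 4, 5 and 8 and 113 FPKM in culture 12.

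Other genes of the lineage were read from lists. Among 17 further transcription factors, 15 were tested in OGD-VEH and 2 were upregulated, against 2.40% of all genes, with a median log2 fold change of 0.48 against 0.10 over all genes. At an unadjusted p under 0.05, limma gave 6 higher and 1 lower, the latter *Sox5* (log2 fold change -0.72, limma padj = 0.0457), which was under the fold threshold and is named after its values were seen. *Sox8*, a close relative of *Sox10*, had 13.04, 14.6, 15.99 and 14.6 FPKM in CONTROL-VEH and 26.6, 43.3, 57.6 and 73.1 FPKM in OGD-VEH, without overlap (log2 fold change 1.69, limma padj = 0.0335). *Zfp488*, a zinc finger gene of oligodendrocyte differentiation, had 0.538, 0.465, 0.791 and 1.03 FPKM in CONTROL-VEH and 1.28, 2.31, 2.31 and 4.28 FPKM in OGD-VEH, again without overlap (log2 fold change 1.65, limma padj = 0.044). Both were highest in culture 12 and lowest in culture 9 of OGD-VEH, as the rising lineage genes were. The 3 most abundant factors, *Tcf4* (0.17), *Id2* (0.05) and *Zeb2* (-0.30), had small log2 fold changes and limma padj between 0.522 and 0.740.

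Of 15 further precursor genes, 14 were tested and 0 were called in OGD-VEH, with a median of 0.56 and 12 of 14 above 0. At an unadjusted p under 0.05, limma gave 5 higher and 2 lower, against 20.2% and 14.8% of all genes tested. The most abundant were the extracellular matrix gene *Bcan* (log2 fold change 0.68, limma padj = 0.288), the phosphatase receptor *Ptprz1* (0.61, padj = 0.144) and *Cacng4* (-0.33, padj = 0.0572). The list of committed precursors had 6 of 9 genes tested, 0 called (0 higher and 1 lower, *Tmem163*, at an unadjusted p under 0.05) and a median of -0.03. Its most abundant genes were *Sirt2* (0.40), *Rras2* (-0.33) and *Tmem163* (-1.28), with limma padj between 0.117 and 0.339. Of 30 further myelin genes, 16 were below the filter and 0 of the 14 tested were called (2 higher and 2 lower at an unadjusted p under 0.05), with a median of 0.23. The most abundant of these were *Enpp2* (0.48), *Galc* (0.27) and *Cmtm5* (0.36), with limma padj between 0.342 and 0.601. With TIA, limma called 0 genes of these 4 lists after OGD, and the medians were 0.44, 0.16, -0.01 and -0.04 against 0.04 over all genes. At an unadjusted p under 0.05 there were 2 higher factors, 2 higher precursor genes, 0 committed precursor genes, and 3 higher and 1 lower myelin genes, against 11.6% higher and 7.91% lower of all genes. Among 8 genes of Schwann cells, the myelinating cells of peripheral nerve that also use *Sox10*, 5 were tested in OGD-VEH and 0 were called (1 higher and 1 lower at an unadjusted p under 0.05), and their sum was 23.2 to 27.6 FPKM in CONTROL-VEH and 26.7 to 77.0 FPKM in OGD-VEH. Of this sum, *Pmp22* alone had 9.73 to 16.7 FPKM in CONTROL-VEH and 14.9, 30.6, 27.1 and 71.5 FPKM in cultures 9 to 12. *Pou3f1*, of the same list, went lower, from 7.83 to 11.3 FPKM in CONTROL-VEH to 2.57 to 8.47 FPKM in OGD-VEH. The part of Schwann cells in *Sox10* was not tested.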

How the data were processed

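Stranded mRNA libraries were read as 50-base single ends, which the authors' service provider aligned to GRCm38 (Ensembl release 92) by STAR before eXpress estimated isoform levels. The deposited values were taken, from the name of the table, as FPKM per isoform after TMM scaling by the authors. Replicates were not pooled. GENCODE M21 gave symbols and positions for 99.89% of isoforms. Here, isoform FPKM were summed per gene, 0.1 was added, and log2 values were tested with limma 3.58.1 (R 4.3.3, variance trend) over genes averaging 0.5 FPKM or more in the 8 cultures compared, or 16 for the interaction. Genes under the filter were read from the fit without it. The authors' tool, DESeq2, needs read counts and was not used. With it, the paper called more genes in both OGD comparisons than the main limma fits did, at the same thresholds. Single values were compared by two-sided exact permutation tests. Depth was estimated from the value of 1 read in 17633 single-isoform genes, and no counting interval was computed. The procedure was tested on simulated data in which both groups had the CONTROL-VEH spread of each gene. Unequal spread between groups, and changes that cultures share across genes, were not covered by it. Alternatives were a pseudocount of 1 or 0.01, no filter, a minimum of 2 FPKM, array quality weights, median-ratio scaling, all 16 cultures in one fit, length-weighted isoforms and leaving out each culture.

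The lineage genes and the lists were chosen with earlier results of these data known. Named genes were the 9 lineage genes, listed genes that were called, the 3 most abundant genes of a list and the 3 genes most alike to each member. Python 3.11.15, pandas 2.3.3, scipy 1.17.1 and matplotlib 3.10.9 were used.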

Additional observations from a re-analysis of the deposited data

Results flagged for a closer look

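In 36 sets of 4 cultures (9 genes in 4 groups), the highest or lowest culture was set against the range of its group, and 5 sets had a culture whose gap to the nearest other one exceeded Dixon's 95% critical value, which chance gives in about 1 of 20 sets. *Sox10* in CONTROL-VEH was flagged for culture 4, with 12.1 FPKM against 5.91 to 6.95 FPKM in the other cultures, a gap of 0.831 of the range. *Cnp* in OGD-TIA was flagged for culture 16, with 21.9 FPKM against 8.59 to 10.8 FPKM, also a gap of 0.831 of the range. The astrocyte list was also highest in culture 4 of CONTROL-VEH (1690 FPKM) and culture 16 of OGD-TIA (2076 FPKM), and its part in these values was not tested. *Mog* was flagged in CONTROL-VEH for culture 1 (0.025 FPKM), in OGD-VEH for culture 11 (0.08 FPKM) and in OGD-TIA for culture 16 (0.074 FPKM). In each of these groups *Mog* was listed at 0 in the other cultures, so any value above 0 gave a gap of 1.0 of the range. The values correspond to about 1 read. Because the 0 values fixed these flags of *Mog*, the count of 5 flagged sets cannot be compared with 1 of 20.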

How the results depend on the processing

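No paired analysis was possible because the cultures are numbered 1 to 16 across the groups and share no replicate numbers. Between OGD-VEH and CONTROL-VEH, 668 genes were called by limma, and 36 without a filter on low values, 1931 with array quality weights, 1415 with all 16 cultures in one fit, 1123 with length-weighted isoforms and 1 to 2188 with 1 culture left out (2188 without culture 9). In OGD-TIA against CONTROL-TIA, limma called 0 genes (3177 at an unadjusted p under 0.05), and 7 without a filter, 80 with array quality weights, 1 with all 16 cultures, 72 with length-weighted isoforms and 0 to 17 with 1 culture left out (17 without culture 16). Without a filter, 4 genes were called between CONTROL-TIA and CONTROL-VEH, 4 between OGD-TIA and OGD-VEH and 3 in the interaction. Array quality weights called 407 genes between OGD-TIA and OGD-VEH, *Olig2* among them (-1.03). Leaving out 1 culture gave 0 to 2 there, 0 to 1 in the interaction and 0 to 0 between CONTROL-TIA and CONTROL-VEH. The cause of these shifts was not tested.

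Of the lineage genes in OGD-VEH, 0 were called without a filter, 3 with a pseudocount of 1, 2 with median-ratio scaling (*Olig1* and *Olig2*), 5 with array quality weights or with all 16 cultures (*Pdgfra* added), and 5 with length-weighted isoforms (*Pdgfra* added, *Cspg4* lost, and *Mbp* downregulated with a log2 fold change of -1.003). Without culture 9, 5 were called upregulated and *Mbp* downregulated (-1.004). None of the 8 lineage genes other than *Mog*, which was not carried through the alternatives, changed direction in this comparison under the alternatives run. In the others, log2 fold changes near 0 changed sign. With array quality weights, *Cspg4* became -0.0579 between OGD-TIA and CONTROL-TIA, and *Mbp* 0.0448 between CONTROL-TIA and CONTROL-VEH. With 1 culture left out, *Cspg4* ran from -0.0705 to 0.25 between OGD-TIA and CONTROL-TIA. Between CONTROL-TIA and CONTROL-VEH, *Olig1* ran from -0.12 to 0.033, *Olig2* from -0.12 to 0.0128, *Cnp* from -0.27 to 0.0008 and *Mbp* from -0.23 to 0.15. *Mag* ran from -0.0169 to 0.16 between OGD-TIA and OGD-VEH and from -0.76 to 0.0141 in the interaction. Depth limits *Mag* and *Mog* most, since *Mag* rests on an estimated 1 to 29 reads per culture.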

Other observations

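*Gpr17*, a receptor of committed precursors, was 1 of the 14 tested precursor genes and is named after its values were seen. Between OGD-VEH and CONTROL-VEH its log2 fold change was 1.08 (limma padj = 0.145). It had 3.39, 3.37, 3.94 and 15.2 FPKM in OGD-VEH and 2.17, 2.33, 1.60 and 11.9 FPKM in OGD-TIA, so that cultures 12 and 16 stood far above the others of their groups, while the control cultures had 1.22 to 3.49 FPKM. The ratio of *Olig2* to *Olig1* varied little, with 0.602 to 0.780 in CONTROL-VEH, 0.645 to 0.688 in CONTROL-TIA, 0.638 to 0.788 in OGD-VEH and 0.637 to 0.748 in OGD-TIA. The ratio of *Sox10* to *Olig2* was 0.125 to 0.236, 0.103 to 0.185, 0.129 to 0.223 and 0.1002 to 0.237 in the same order. The ranges of both ratios overlapped in all 4 groups.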
